A study of Mus musculus with 8 samples.

Results

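The genes described here encode the subunits of the proteasome, its assembly chaperones and its activators in mouse hippocampal place cells. All genes of the deposited expression table whose symbol is Psma, Psmb, Psmc, Psmd or Psme followed by a number were taken, which gave 39 of 15519 genes. They comprise 15 core subunits (7 Psma and 8 Psmb), 20 regulatory subunits and chaperones (6 Psmc and 14 Psmd) and 4 activators (Psme). Psma8, Psmb8, Psmb9 and Psmb11 were not analysed here. The genes were taken by symbol alone, but the family was chosen with earlier results of these data known.

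The proteasome degrades proteins that have been marked with ubiquitin. Its core is a barrel with alpha rings, built from the Psma products, at its ends and beta rings, built from the Psmb products, between them, whose inner faces carry the catalytic sites. The regulatory particle sits on the end of the barrel: its base, with the Psmc ATPases, unfolds substrates and opens the gate, and its lid removes the ubiquitin chains. The Psme activators are alternative caps that open the gate without ATP. In hippocampal neurons proteasomes enter dendritic spines with activity, and blocking them impairs long-lasting synaptic plasticity and memory.

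Nuclear RNA of hippocampal pyramidal cells was sequenced from wild-type mice. Place cells, neurons that fire at particular places in an environment, had been picked out by imaging in the living animal during navigation, and their nuclei were marked with light and collected. The study set 4 libraries of Day 0 place cells against 4 libraries of Recurring place cells. The labels give the genotype WT and the tissue for both groups, and define neither class, the age of the animals nor the number of nuclei in a library. Each title names its own mouse and nothing more is said of separate animals, so p-values reflect no more than how far these libraries scatter, which may be technical.

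Depth ran from 8374986 to 11789780 reads in Day 0 and from 8613854 to 14887866 reads in Recurring libraries, with 10718 to 13807 genes read per library. Values below are normalized counts, that is, reads divided by a size factor of the library, which lay between 0.837 and 1.61. Log2 values are of the normalized count plus 1. A library without reads of a gene allows a normalized count of up to 1.86 to 3.58 (3 reads, counting error only). All 10 listed markers of CA1 pyramidal cells were in the table, with a mean log2 level of 8.96 to 10.28 in Day 0 and 9.66 to 10.52 in Recurring libraries. Markers of other cells were uneven. The summed normalized count of 10 astrocyte markers was 18190 in Recurring replicate 1 and 2064 to 8306 in the other libraries, and that of 9 interneuron markers was 11787 in Recurring replicate 2 and 216 to 3587 in the others.

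No proteasome gene differed between the groups at the threshold. All 39 genes passed the filter on low values, at least 4 libraries with a normalized count of 10 or above, and limma called 0 of them at an adjusted p under 0.05, against 0% of the 11078 genes tested. The lowest adjusted p among the 39 was 0.981, and voom weights on the reads also called 0. In Recurring cells 20 genes had a higher and 19 a lower mean than in Day 0 cells, with a median difference of 0.04 (log2, Recurring minus Day 0). Over all tested genes 50.1% were higher and the median was 0.00. At an unadjusted p under 0.05 by limma 1 gene was higher, Psmb10, and 0 were lower, against 1.88% and 1.74% of all tested genes (3.62% in either direction). In 0 of the 39 did the groups keep apart without overlap, against 2.41% of tested genes, 1.24% higher and 1.17% lower. In a bulk sample of nuclei, fewer cells of a type and less RNA per cell cannot be told apart.

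The proteasome genes together took 0.510%, 0.472%, 0.350% and 0.424% of reads in Day 0 replicates 1 to 4. In Recurring replicates 1 to 4 they took 0.323%, 0.453%, 0.494% and 0.512%. The means were 0.439% ± 0.0690 and 0.446% ± 0.0854 (SD, n = 4), so the groups overlapped, with Recurring replicate 1 lowest and Recurring replicate 4 highest.

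**Figure D1:**
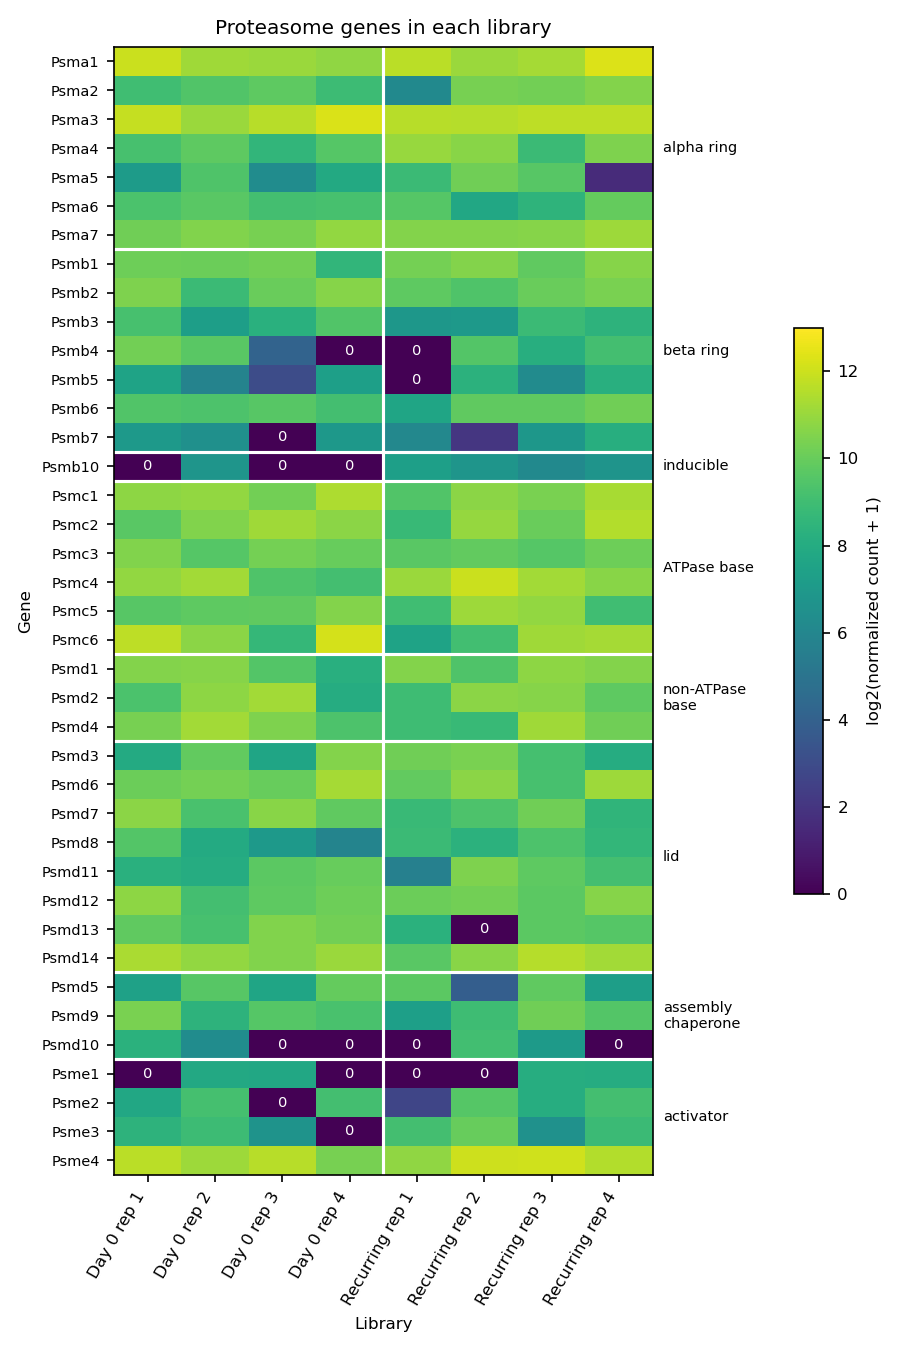
Heat map of log2(normalized count + 1) for the 39 genes (vertical axis, ordered by role) in the 8 libraries (horizontal axis, Day 0 left and Recurring right of the white line). A 0 marks a library without reads of the gene; the alpha ring and ATPase rows hold none, and Psmb10 holds 3 in Day 0 and none in Recurring libraries.

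The alpha ring, whose subunits form the gate and the docking face of the core, was read in all 8 libraries for each of its 7 genes. Of these, 4 had a higher mean in Recurring cells and 3 a lower one, with a median difference of 0.04. Per kilobase of exon, Psma1 was the most abundant of all the proteasome genes, at a mean normalized count of 972 per kb. Its normalized counts were 3996, 2265, 2076 and 1824 in Day 0 replicates 1 to 4 and 3211, 2112, 2410 and 5065 in Recurring replicates 1 to 4. The ranges overlapped and the difference was 0.32 (log2, SE 0.43). Leaving out Recurring replicate 4 gave 0.07 and Day 0 replicate 4 gave 0.18, while leaving out Recurring replicate 2 gave 0.49 and Day 0 replicate 1 gave 0.54.

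Psma4, another alpha ring subunit, had the largest difference of the ring. It stood at 592, 860, 374 and 755 in Day 0 and at 2004, 1632, 463 and 1449 in Recurring libraries. Recurring replicates 1, 2 and 4 lay above all Day 0 libraries, and Recurring replicate 3 lay among them. Its mean log2 level was 9.27 ± 0.53 for Day 0 and 10.25 ± 0.95 for Recurring cells (SD, n = 4). They differed by 0.98 (SE 0.66, limma adjusted p = 0.981). The annotation holds a near-identical copy of it, Gm6542, which can share its reads.

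Psma3 had the narrowest interval of the proteasome genes. Its difference was -0.05 with a 95% interval from -0.84 to 0.74, the one interval of the 39 that lay within 1 log2 unit of 0 (2.56%, against 1.98% of all tested genes). The table holds 3 near-identical copies of it, and copies of Psma5, Psmc1 and Psmd11 too. Of the 30 genes read in all libraries, Psma7 varied least, 1.90-fold between its lowest and highest library, and Psma5 most, with 80.1 to 1155 in 7 libraries and 2.03 in Recurring replicate 4. Psma2 was at 70.6 in Recurring replicate 1 and at 474 to 1546 in the other 7 libraries. Psma6 ranged from 223 to 983.

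The constitutive beta ring had 3 genes with a higher mean in Recurring cells and 4 with a lower one, with a median difference of -0.01, and 4 of its 7 genes were read in all 8 libraries. Its 3 catalytic subunits are Psmb5, with chymotrypsin-like activity, Psmb6, with caspase-like activity, and Psmb7, with trypsin-like activity. Psmb5 stood at 183, 55.0, 7.17 and 162 in Day 0 and at 0, 327, 76.3 and 296 in Recurring libraries. Recurring cells held both its lowest and its highest values, and the difference was -0.22 (SE 2.34). A near-identical copy, Gm3375, can share its reads.

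Psmb6 stood at 700, 667, 782 and 542 in Day 0 and at 201, 913, 910 and 1154 in Recurring libraries. Recurring replicate 1 was below, and the other 3 Recurring libraries were above, every Day 0 library. The difference was -0.01 (SE 0.74), and without Recurring replicate 1 it was 0.55. Psmb7 stood at 132, 91.7, 0 and 120 in Day 0 and at 65.7, 3.23, 117 and 282 in Recurring libraries, a difference of 0.66 (SE 2.39) over groups that overlapped. It had the lowest level per kilobase of the 39 genes, 29.6, and 405 of its exon bases overlap Nek6.

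The other beta subunits shape the ring without a constitutive catalytic site. Psmb2 had the highest level per kilobase among them, at 880. It stood at 1431, 462, 1041 and 1590 in Day 0 and at 874, 695, 1037 and 1346 in Recurring libraries, a difference of -0.09 (SE 0.61), with the Recurring values inside the Day 0 range. Psmb3 stood at 599, 154, 305 and 710 in Day 0 and at 116, 124, 463 and 332 in Recurring libraries, a difference of -0.79 (SE 1.07) over overlapping groups. It was -1.22 without Day 0 replicate 2, and -0.48, -0.50 and -0.52 without Day 0 replicate 4 and Recurring replicates 1 and 2. Psmb1 ranged from 379 to 1617. Psmb4 was at 0 in Day 0 replicate 4 and Recurring replicate 1, at 16.7 in Day 0 replicate 3 and at 284 to 1200 in the others.

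The inducible subunit Psmb10 replaces Psmb7 in the immunoproteasome, a form that immune cells carry and that interferon induces in other cells. It was read in all 4 Recurring libraries, at 160, 108, 72.0 and 104. In Day 0 cells it was read in replicate 2, at 108, and was at 0 in replicates 1, 3 and 4. The groups overlapped through Day 0 replicate 2, which lay above Recurring replicates 3 and 4. Mean log2 levels were 1.69 ± 3.38 for Day 0 and 6.75 ± 0.47 for Recurring cells (SD, n = 4). The difference of 5.06 (SE 2.23, 95% interval 0.35 to 9.78) had a limma adjusted p of 0.981 and an unadjusted p of 0.0369. With a pseudocount of 8 in place of 1 it was 2.88, and with library weights 3.08.

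The mean level of microglia markers was, like that of Psmb10, higher in Recurring cells. Of 12 listed markers 6 were measured, and their mean log2 level was 2.47, 3.86, 2.49 and 2.70 in Day 0 replicates 1 to 4 and 4.06, 5.75, 4.45 and 9.50 in Recurring replicates 1 to 4. Day 0 replicate 2, the Day 0 library with Psmb10 reads, was the highest of its group. It was also the library with the most genes read, 13807. In it 3.08% of tested genes were at 0, against 10.1%, 12.2% and 19.2% in Day 0 replicates 1, 3 and 4. The markers' summed normalized count was 358 to 707 in Day 0 and 507 to 6221 in Recurring cells. Tmem119, a marker of resident microglia, was at 0 in all 4 Day 0 libraries and in Recurring replicate 1, and at 524, 28.6 and 776 in Recurring replicates 2 to 4. C1qb, a complement gene of microglia chosen here after its values were seen, was at 0, 50.2, 0 and 0 in Day 0 and at 315, 186, 122 and 1308 in Recurring libraries. Astrocyte markers were also higher in most Recurring libraries. For 10 of 12 listed markers the mean log2 level was 3.04, 6.59, 5.33 and 5.22 in Day 0 and 9.73, 7.97, 6.94 and 5.41 in Recurring libraries, and of 9 tested 6 had a higher mean in Recurring cells and 3 a lower one, with a median difference of 3.88. Recurring replicate 1, with the most Psmb10, was the highest of all, Day 0 replicate 2 was the highest of its group, and Recurring replicate 4 lay within the Day 0 range. Their summed normalized count was 2064 to 4131 in Day 0 and 2103 to 18190 in Recurring libraries. The part of microglia, of astrocytes and of the number of genes read in a library in the Psmb10 result was not tested.

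Antigen processing partners, which carry the peptides of the immunoproteasome to the cell surface, were also mostly higher. Of 7 tested genes of that list 6 had higher and 1 a lower mean in Recurring cells, with a median difference of 3.69, and 0 passed the adjustment by limma. H2-D1, a class I heavy chain, was at 0, 142, 182 and 2.00 in Day 0 and at 464, 1098, 350 and 291 in Recurring libraries, with no overlap. Its difference was 4.84 (SE 2.05), with a limma adjusted p of 0.981 and an unadjusted p of 0.0308. Of the 7 genes it was the 1 whose groups did not overlap, against 1.24% of all tested genes in that direction. B2m, the light chain, was at 0, 127, 0 and 19.0 in Day 0 and at 141, 1058, 12.7 and 730 in Recurring libraries, a difference of 4.79 (SE 2.44). None of the 7 genes was read in all 8 libraries.

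**Figure D2:**
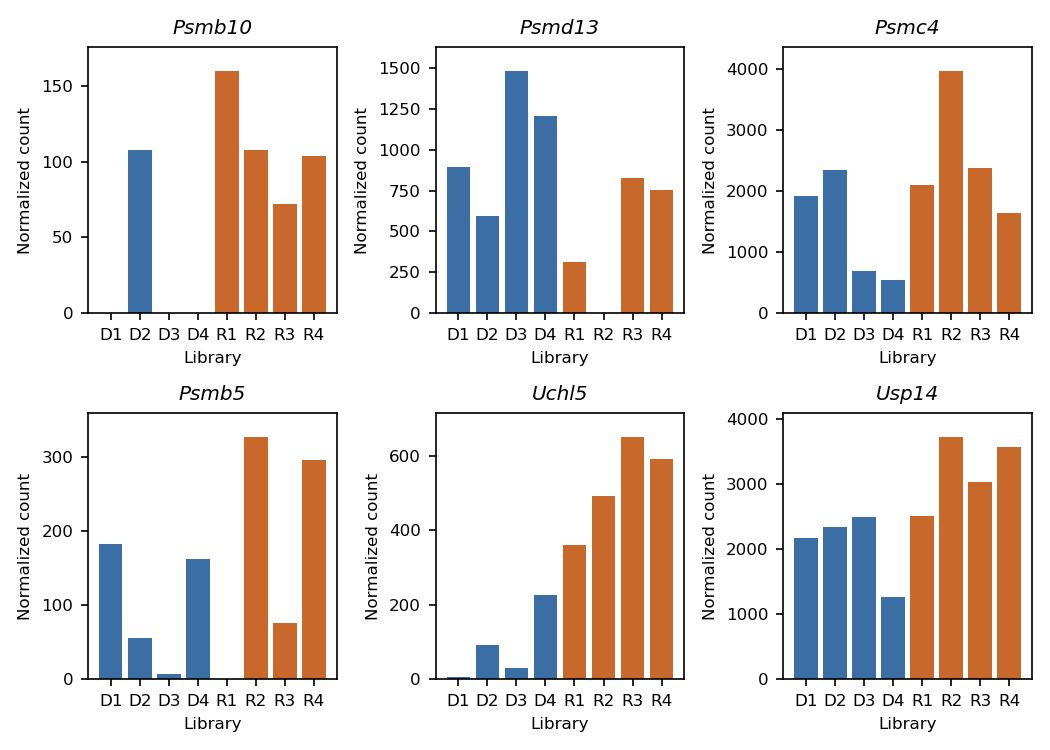
Normalized counts (vertical axes, from 0) in Day 0 replicates 1 to 4 (D1 to D4, blue) and Recurring replicates 1 to 4 (R1 to R4, orange) for 4 proteasome genes and the 2 proteasome-bound deubiquitinases Uchl5 and Usp14. Psmb10 has bars in 1 Day 0 and 4 Recurring libraries, Psmd13 lacks a bar in R2, and the lowest Recurring bar of Uchl5, at 361, stands above its highest Day 0 bar, at 227.

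The 6 ATPases of the base, a ring that pulls substrates into the core, were read in all 8 libraries. In Recurring cells 2 had higher and 4 lower means, with a median difference of -0.25. Psmc4 stood at 1923, 2340, 687 and 546 in Day 0 and at 2093, 3959, 2371 and 1644 in Recurring libraries. Day 0 replicates 3 and 4 lay below every Recurring library, while Day 0 replicates 1 and 2 lay among them. Its mean log2 level was 10.16 ± 1.05 for Day 0 and 11.22 ± 0.53 for Recurring cells (SD, n = 4). The difference of 1.06 (SE 0.56) had a limma adjusted p of 0.981 and an unadjusted p of 0.0762. At 899 per kb it was the most abundant ATPase per length, with Psmc1 at 897 and Psmc5 at 829.

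Psmc6, another ATPase of the ring, went the other way. It stood at 3383, 1735, 398 and 4588 in Day 0 and at 186, 528, 2245 and 2397 in Recurring libraries, which overlap. The difference was -1.08 (SE 0.86). It was -0.37 without Recurring replicate 1, -0.64 without Day 0 replicate 4 and -1.81 without Day 0 replicate 3. Psmc3 was steady, from 752 to 1503. Psmc1, Psmc2 and Psmc5 were each lowest in Recurring replicate 1, at 712, 432 and 506, and differed by -0.34, -0.22 and 0.04.

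The non-ATPase part of the base holds the scaffolds Psmd1 and Psmd2 and the ubiquitin receptor Psmd4. Psmd4 stood at 1288, 2315, 1444 and 652 in Day 0 and at 493, 433, 2288 and 1176 in Recurring libraries, a difference of -0.57 (SE 0.67). That difference was -0.24, -0.29 and -0.31 without Recurring replicate 2, Day 0 replicate 2 and Recurring replicate 1, and -0.90 and -1.04 without Day 0 replicate 4 and Recurring replicate 3. Psmd1 stood at 1547, 1612, 734 and 292 in Day 0 and at 1557, 693, 1790 and 1525 in Recurring libraries, a difference of 0.62 (SE 0.66), or 0.10 without Day 0 replicate 4. Both pairs of groups overlapped. Psmd2 ranged from 264 to 2372 and differed by 0.19.

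In the lid 3 genes had a higher mean in Recurring cells and 5 a lower one, with a median difference of -0.17. Psmd13, a structural lid subunit, had the most negative difference of the 39. It stood at 897, 592, 1482 and 1210 in Day 0 and at 313, 0, 829 and 752 in Recurring libraries. Recurring replicates 1 and 2 lay below every Day 0 library and the other 2 within the Day 0 range. Mean log2 levels were 9.95 ± 0.57 and 6.89 ± 4.63 (SD, n = 4), and the difference of -3.06 (SE 1.65) had a limma adjusted p of 0.981 and an unadjusted p of 0.0818. It rested on 1 library: without Recurring replicate 2 it was -0.77. Psmd13 shares 342 exon bases with Sirt3, and reads there cannot be told apart without the strand.

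Psmd14, the metalloprotease that removes ubiquitin chains as the substrate enters, had the highest level per kilobase of the lid, at 707. It stood at 2587, 1901, 1501 and 2144 in Day 0 and at 825, 1673, 2974 and 2348 in Recurring libraries. Recurring cells held both extremes, and the difference was -0.18 (SE 0.49). Psmd7, its inactive partner in the lid, stood at 1680, 612, 1674 and 911 in Day 0 and at 449, 668, 1161 and 358 in Recurring libraries. The groups overlapped, with a difference of -0.91 (SE 0.67, limma adjusted p = 0.981). Psmd8 differed by 1.21 (SE 1.08), Psmd3 by 0.44, Psmd12 by 0.20, Psmd11 by -0.24 and Psmd6 by -0.17. Psmd11 was at 48.9 in Recurring replicate 1 and at 262 to 1433 in the others, and Psmd8 at 57.1 to 740.

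Psmd5, Psmd9 and Psmd10 are chaperones that help the base assemble and are not part of the finished particle. Psmd9 had the highest level per kilobase, at 96.3, below every lid and base subunit. It stood at 1314, 337, 755 and 621 in Day 0 and at 162, 496, 1167 and 728 in Recurring libraries, a difference of -0.40 (SE 0.81) over overlapping groups. In all, 1849 of its exon bases overlap Gm26745. Psmd5 stood at 175, 790, 197 and 972 in Day 0 and at 838, 13.7, 920 and 154 in Recurring libraries, a difference of -0.98 (SE 1.34), or 0.28 without Recurring replicate 2. Psmd10 was at 0 in 4 libraries, 2 of each group, and at 78.2 to 525 in the others.

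All 4 activator genes had higher means in Recurring cells, with a median difference of 0.65, and 0 passed. Psme4, which encodes a nuclear activator, was read at 1298 or more in every library. It stood at 3167, 2174, 3145 and 1298 in Day 0 and at 1836, 4139, 4326 and 2873 in Recurring libraries, a difference of 0.44 (SE 0.44) over overlapping groups. Leaving out Day 0 replicate 4 gave 0.16, Recurring replicate 3 gave 0.28 and Recurring replicate 1 gave 0.68. Psme3, also a nuclear activator, stood at 339, 479, 102 and 0 in Day 0 and at 561, 1012, 93.2 and 463 in Recurring libraries. The groups overlapped, with a difference of 2.63 (SE 1.85), or 0.64 without Day 0 replicate 4, the library at 0.

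Psme1 and Psme2 form the interferon-inducible cap that often pairs with the immunoproteasome. Psme1 was at 0, 227, 221 and 0 in Day 0 and at 0, 0, 269 and 261 in Recurring libraries, a difference of 0.12 (SE 2.74). Psme2 was at 219, 569, 0 and 549 in Day 0 and at 5.57, 765, 271 and 564 in Recurring libraries, a difference of 0.87 (SE 2.19). Reads were present or absent in either group, and 3 of the 4 activators were at 0 in at least 1 library. Psme2b, a near-identical copy of Psme2, can share its reads.

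**Figure D3:**
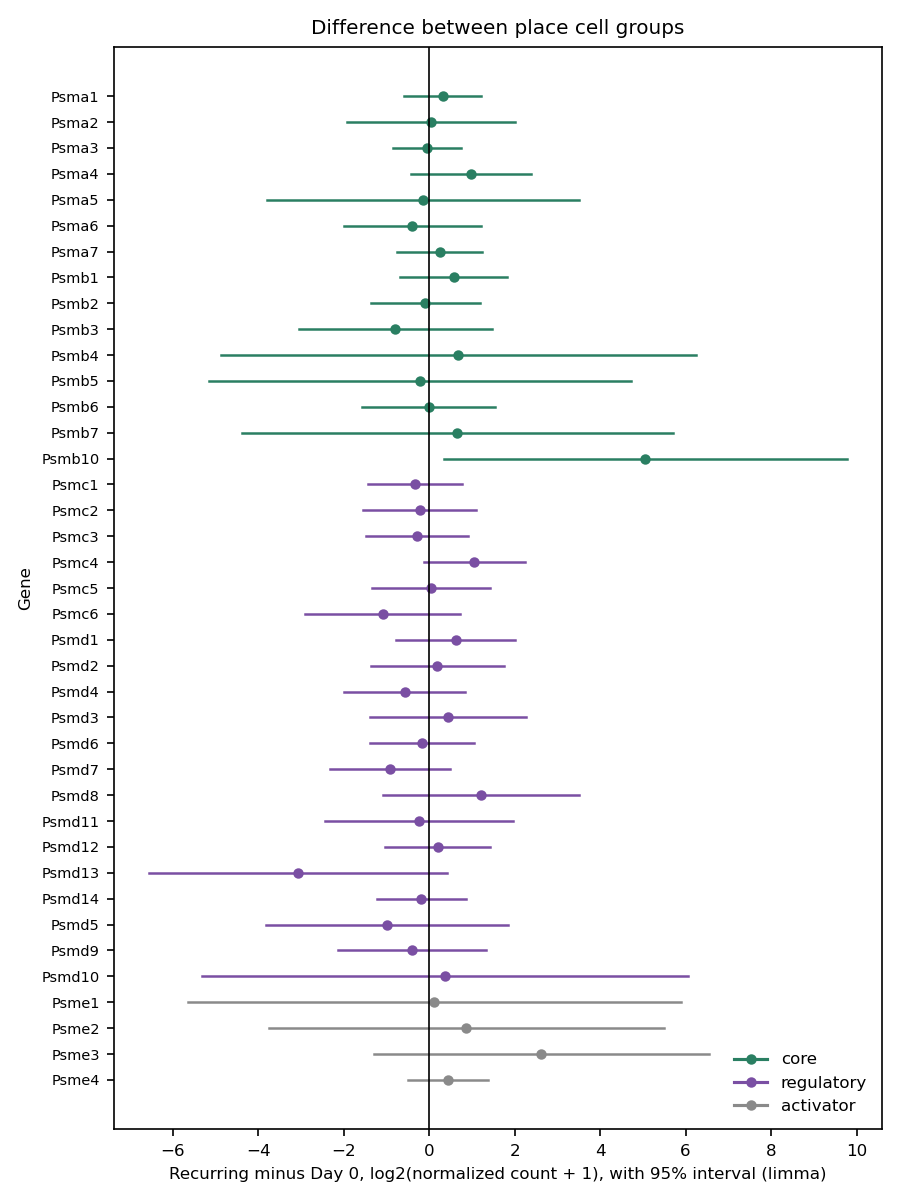
Difference in log2(normalized count + 1), Recurring minus Day 0, for each of the 39 genes (points), with its 95% interval from limma (lines), coloured by core, regulatory and activator. The interval of Psmb10, from 0.35 to 9.78, is the one that leaves out 0.

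Neither the core nor the regulatory subunits set the groups apart, and the library means overlapped on both sides. Of 15 core genes 8 had a higher mean in Recurring cells and 7 a lower one, with a median difference of 0.04. Of 20 regulatory genes 8 were higher and 12 lower, with a median of -0.20. The mean log2 level over the core genes was 8.86, 9.03, 7.47 and 8.11 in Day 0 and 7.83, 9.04, 9.12 and 9.31 in Recurring libraries. Over the regulatory genes it was 9.91, 9.72, 9.19 and 9.39 in Day 0 and 8.63, 9.24, 10.08 and 9.40 in Recurring libraries. Recurring replicate 1 was the lowest of its group on both sides.

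Within each library the core mean minus the regulatory mean was -1.05, -0.69, -1.72 and -1.28 in Day 0 and -0.80, -0.19, -0.96 and -0.09 in Recurring cells. The group means were -1.19 ± 0.43 and -0.51 ± 0.43 (SD, n = 4), and the groups overlapped through Day 0 replicate 2. Without Psmb10 the means were -0.71 ± 0.34 and -0.36 ± 0.46 (SD, n = 4), and their difference went from 0.67 to 0.34. These means are not per length. Summed per kilobase, the core reached 5531 ± 918 in Day 0 and 6397 ± 1203 in Recurring cells, and the regulatory genes at 7860 ± 1011 and 7570 ± 2075 (SD, n = 4). The lowest regulatory sum, 4527, was that of Recurring replicate 1, the one library besides Recurring replicate 4 in which the core sum was the larger.

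**Figure D4:**
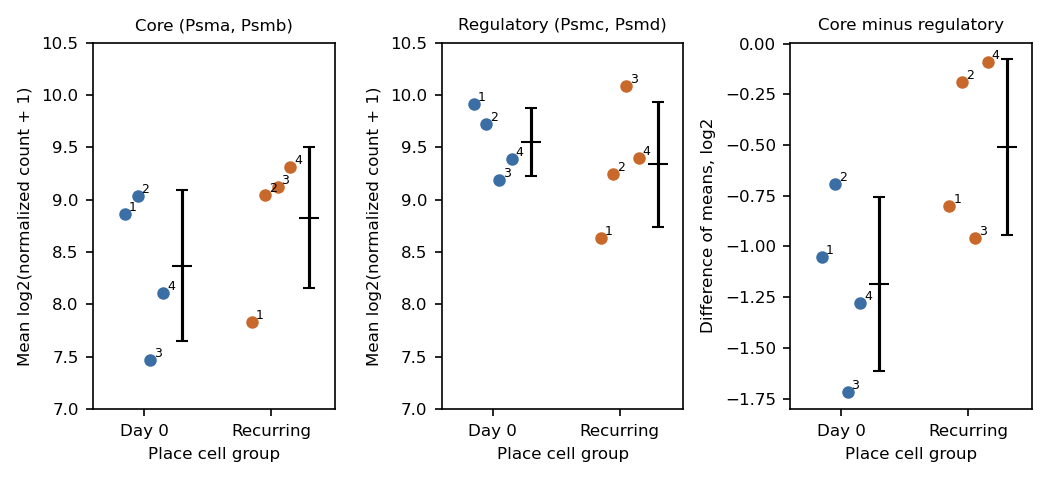
Mean log2(normalized count + 1) over the 15 core genes (left) and the 20 regulatory genes (middle), and the core mean minus the regulatory mean (right), in each library (points, numbered by replicate), with the group mean ± SD (black). On the right the 2 groups overlap: Day 0 replicate 2, at -0.69, lies above Recurring replicates 1 and 3, at -0.80 and -0.96.

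Recurring replicate 1 was low for many of the genes. Of the 35 genes with 1 lowest library, 11 had it there (31.4%), against 18.2% of all tested genes. Its median deviation from the genes' means was -0.45 over the 39 genes and 0.07 over all tested genes. Without it 26 of the 39 had higher means in Recurring cells and 13 lower, the core median was 0.55 and the regulatory median 0.18, while the median of all tested genes was 0.13. This was also the library with the highest astrocyte markers, and the part of those cells was not tested.

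The proteasome genes were read more evenly than most. Reads were found in all 8 libraries for 30 of 39 (76.9%), against 6022 of 11078 tested genes (54.4%). By side, this held for 11 of 15 core, 18 of 20 regulatory and 1 of 4 activator genes. Zeros numbered 11 in Day 0 and 7 in Recurring libraries, with none in Day 0 replicate 2 and Recurring replicate 3 and 5 in Day 0 replicate 4. The median SD within a group was 0.96 log2 units against 2.36 over all tested genes. Levels differ between those sets. Among genes with a mean log2 level of 8.17 to 10.17, the medians were 0.93 for 19 proteasome genes and 1.17 for 2823 tested genes.

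The promoters of 33 of the genes are given by RefSeq on GRCm38.p6 as 36 windows, each from 250 bases before to 50 after a start. Proteasome genes are known targets of Nfe2l1, a factor that binds antioxidant response elements, so the windows were searched on both strands for the core of that element, TGANNNNGC, and for CCAAT. The element core was found in 20 of 36 windows (55.6%), against 41.3% of 32851 windows of all genes. CCAAT was found in 12 (33.3%), against 37.4%. By side, the element core was in 9 of 13 core, 8 of 18 regulatory and 3 of 5 activator windows. The Psme2 windows overlap and share a single site, which is counted in each of them. The median window held 19.5 CpG sites, against 7 over all windows.

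The windows of the gene with the smallest p in each direction, Psmb10 and Psmd13, and of the catalytic subunit Psmb5 are given 5′ to 3′ on the strand of the gene, with matches to the element core in capitals. They lie at chr8:105938343-105938642 (minus strand), chr7:140882144-140882443 (plus strand) and chr14:54617946-54618245 (minus strand) of GRCm38.p6.
Psmb10: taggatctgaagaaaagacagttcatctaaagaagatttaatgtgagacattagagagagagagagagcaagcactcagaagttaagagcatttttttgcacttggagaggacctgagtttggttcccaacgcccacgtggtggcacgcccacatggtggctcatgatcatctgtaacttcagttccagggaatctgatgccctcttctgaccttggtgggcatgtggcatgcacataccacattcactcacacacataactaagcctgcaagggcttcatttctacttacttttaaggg
Psmd13: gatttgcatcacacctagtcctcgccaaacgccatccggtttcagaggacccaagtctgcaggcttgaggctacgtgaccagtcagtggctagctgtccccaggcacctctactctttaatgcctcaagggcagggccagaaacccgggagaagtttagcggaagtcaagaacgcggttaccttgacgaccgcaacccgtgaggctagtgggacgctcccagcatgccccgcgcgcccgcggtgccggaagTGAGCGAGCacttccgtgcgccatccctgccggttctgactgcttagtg
Psmb5: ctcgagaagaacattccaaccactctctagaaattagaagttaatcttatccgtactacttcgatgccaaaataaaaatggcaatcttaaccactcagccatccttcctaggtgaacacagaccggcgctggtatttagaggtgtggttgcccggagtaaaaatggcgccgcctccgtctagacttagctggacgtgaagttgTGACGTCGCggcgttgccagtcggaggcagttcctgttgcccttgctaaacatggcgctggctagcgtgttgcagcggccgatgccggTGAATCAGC
The Psmd13 window has 1 match, from base 2 to base 10, counted from 1 at the start. The Psmb5 window has 2, from 47 to 39 bases before the start and from base 42 to base 50. The Psmb10 window holds neither motif, which says only that these letters are absent from it, and it has 3 CpG sites against 20 for Psmb5 and 22 for Psmd13.

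The rest of the pathway gave no gene past the adjustment either. Over 7 lists 72 of 78 genes were measured and 68 tested, of which 32 had a higher mean in Recurring cells and 36 a lower one, with a median of -0.07. Limma called 0 of the 68. At an unadjusted p under 0.05 there were 2 of the 68, H2-D1 and Uchl5, both higher, against 3.62% of all tested genes in either direction and 1.88% higher.

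Enzymes and receptors bound to the proteasome numbered 4 higher and 3 lower of 7 tested, with a median difference of 0.24. Uchl5, a deubiquitinase that docks on the regulatory particle, stood at 5.95, 92.5, 31.1 and 227 in Day 0 and at 361, 494, 651 and 592 in Recurring libraries. All Recurring libraries lay above all Day 0 libraries. The difference was 3.46 (SE 1.49), with a limma adjusted p of 0.981 and an unadjusted p of 0.0329. Usp14, the other deubiquitinase of the particle, was chosen after its values were seen. It stood at 2170, 2333, 2495 and 1255 in Day 0 and at 2513, 3718, 3022 and 3571 in Recurring libraries, again with no overlap, and its difference was 0.67 (SE 0.41, limma adjusted p = 0.981). Groups did not overlap in 1.24% of all tested genes in that direction. Adrm1, the docking site of Uchl5 and a ubiquitin receptor, had the highest level per kilobase of the list and differed by -0.56 (SE 0.62).

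Genes of core assembly numbered 3 higher and 5 lower of 8, with a median of -0.15. Psmg2, a chaperone of the alpha ring, differed by -0.01 (SE 0.98), and Psmf1, an inhibitor of the core, by 3.54 (SE 2.06), with 8.18, 374, 753 and 0 in Day 0 and 1403, 475, 1234 and 55.8 in Recurring libraries. Those groups overlapped. Regulators of proteasome genes numbered 2 higher and 6 lower of 8 tested, with a median of -0.44. Nfe2l2, also on that list, fell short of the filter and was not tested. It is named here outside the rule given below, with its values known. It stood at 0, 0, 5.97 and 0 in Day 0 and at 594, 1174, 153 and 0 in Recurring libraries. Nfe2l1, the factor named with the promoters, was tested. Its values were 245, 341, 0 and 9.02 in Day 0 and 105, 0, 59.3 and 51.7 in Recurring libraries. They overlapped, with a difference of -0.33 (SE 2.54). Fbxw7, a substrate receptor of a ubiquitin ligase, led that list in level and in p and differed by -0.54 (SE 0.40).

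Ubiquitin genes and E1 enzymes numbered 5 higher and 3 lower of 8, with a median of 0.09. Ubb, a polyubiquitin gene, stood at 1927 per kb and differed by 0.13 (SE 0.44). Uba6, an E1 enzyme, differed by -1.26 (SE 0.92). Shuttle receptors and p97 partners, which bring substrates, numbered 4 higher and 6 lower of 10, with a median of -0.53. Ufd1 differed by -0.96 (SE 0.78) and Ubqln1 by -3.06 (SE 1.85). Ubqln1 was at 475, 636, 505 and 146 in Day 0 and at 0, 443, 128 and 80.1 in Recurring libraries, so Recurring replicate 1 was again the lowest.

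Ubiquitin ligases of neurons numbered 8 higher and 12 lower of 20 tested, with a median of -0.24. Ube3a, the ligase lost in Angelman syndrome, ranged from 5548 to 38907 in Day 0 and from 11473 to 23392 in Recurring libraries and differed by 0.20 (SE 0.44). Skp1, an adaptor of cullin ligases, stood at 279, 1073, 1268 and 750 in Day 0 and at 680, 2155, 1571 and 5003 in Recurring libraries. The groups overlapped, with a difference of 1.33 (SE 0.68) and an adjusted p of 0.981 by limma.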

How the data were processed

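Nuclear RNA of 8 libraries, 4 per group, was turned into sequencing libraries with the SMART-Seq mRNA LP kit, per the labels' protocols. Reads were aligned with STAR and counted with HTSeq on GRCm39, per the submitters' processing notes, whose versions are not given. The deposited values are a signal that the authors scaled, with no step of scaling stated. They were found to be whole reads times a constant of each gene, between 0.522 and 1.60 for the 39 proteasome genes. Each constant was found as the largest step that fits all values of its gene. The constants matched trimmed-mean factors computed across genes for 15477 of 15519 genes and for all 39. That match is partly fitted: some trimming windows were found from the values, and a whole fraction of the step was taken where it matched better. Dividing the constants out gave whole reads within 0.1 read for 95904 of 95910 values above 0, which follows largely from how they were found. The table holds 0 columns of other samples.

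Size factors were medians of ratios to the geometric mean library, and log2 values were compared with limma 3.58.1 (R 4.3.3), with a variance trend, a pseudocount of 1 and the Benjamini-Hochberg adjustment over 11078 genes. The other steps used Python 3.11.15, numpy 2.4.6 and pandas 2.3.3, and the scripts were tested on simulated data. Depth limits precision as given with each value, and intervals are at 95%. Exon lengths, overlaps and copies of at least 95% identity over 200 bases came from GENCODE vM21 on GRCm38, an earlier build than that of the reads. By that rule 12 of the genes have a copy, 9 of them with a copy in the table, and 10 overlap exons of another gene. For Psmb7 and Psmd13 the copy counted is the overlapping neighbour itself, Nek6 and Sirt3, so it is shared exon sequence. Counting of reads by strand is not given in the sources used here.

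The genes, lists and rules were chosen with earlier results of these data known. The rule gave full values for the catalytic and inducible subunits, the most abundant gene and the gene with the largest difference in each role, and the 4 genes with the smallest p in each direction. In each pathway list it named the most abundant gene and that with the smallest p. Markers of 7 cell types were summed per library. Alternatives were other pseudocounts, filters, scalings, variance models and library weights, and leaving out each library.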

Additional observations from a re-analysis of the deposited data

Results flagged for a closer look

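In 44 groups of 4 libraries (of named genes and of the core, regulatory and activator means), the highest and lowest library were set against the others. In 5 groups 1 library stood apart, its gap to the nearest library being above the 95% critical value of Dixon for 4 samples. For values with normal scatter, chance marks about 1 in 20 groups. Many of these genes were named for a large difference or a small p, and some hold values of 0. That rate need not hold here. Psmb6 was at a log2 level of 7.66 in Recurring replicate 1, with the next library at 9.83. Psmb7 was at 0.00 in Day 0 replicate 3, with the next at 6.53. Psmb10 was at 6.76 in Day 0 replicate 2 and at 0.00 in the other Day 0 libraries. Psmd1 was at 9.44 in Recurring replicate 2, with the next at 10.58. Psmd13 was at 0.00 in Recurring replicate 2, with the next at 8.30.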

How the results depend on the processing

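Over 18 alternatives, 0 of the 39 genes were called, and limma called 0 genes in all but one: without a variance trend it called 2, both outside the proteasome genes. With voom 518 genes had an unadjusted p under 0.05, against 401. The number of proteasome genes with higher means was 15 to 26 when 1 library was left out, 24 with library weights, 16 with voom and 13 of 29 with the filter applied to all 8 libraries, which tests fewer genes. The core median minus the regulatory median was 0.24, and 0.17 to 0.48 with 1 library left out. Of 337 differences of named genes, 315 kept their sign and 22, in 8 genes, changed it. These were Psmb6 at 0.09 and Psmb2 at 0.01 on the deposited values, Psmb5 at 0.29 with a pseudocount of 8, and, with library weights, Psmb5 at 0.43, Psmb6 at 0.20, Psmb2 at 0.38, Psmb3 at 0.03, Psmd14 at 0.10 and Psmd9 at 0.29. With 1 library left out the ranges were -1.20 to 1.67 for Psmb5, -0.27 to 0.55 for Psmb6, -0.47 to 0.12 for Psmb2, -1.05 to 1.90 for Psmb7, -0.43 to 0.17 for Psmd14, -0.80 to 0.14 for Psmd9 and -1.71 to 0.28 for Psmd5. Library weights also brought Psma4 to 0.48, Psmc4 to 0.59, Psmc6 to -0.49, Psmd1 to 0.24, Psmd7 to -0.43 and Psme3 to 0.57. The cause was not tested. No paired analysis was possible because replicate numbers follow the order of deposit and pair no libraries. Where a gene has no reads in a library, its level is limited by the 3 reads a count of 0 allows.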
